A study of Mus musculus with 32 samples.

Results

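The peaks described here are those listed as open chromatin in mouse astrocytes whose centre lay within 10 kb of a transcription start site (TSS). They were chosen by values in the deposited peak lists: a peak was taken when it lay on chromosomes 1 to 19, had a listed distance to the TSS of at most 10 kb in either direction and was narrower than 500 kb. This rule kept 1694 of 16174 peaks (10.5%) over 6 lists. They numbered 556 of 6184 peaks in GFP control, 373 of 4064 in GFP CSDS, 133 of 1558 in Zbt-KD control, 129 of 1403 in Zbt-KD CSDS, 201 of 1548 in GFP SSDS and 302 of 1417 in ZBT-OE SSDS. Distance and width set the membership, so the number of peaks and their share of a list are given as a description, without a test.

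The chromatin came from astrocytes of the orbitofrontal cortex (OFC) of male C57BL/6J mice, bought at 6 to 12 weeks of age and injected with AAV6 under a GFAP promoter. Cells were collected by magnetic-activated cell sorting (MACs) with an antibody against the astrocyte surface antigen ACSA-2, and each of the 32 samples pooled 3 mice. In the first experiment the virus carried either a microRNA that lowers Zbtb7a (Zbt-KD) or a non-targeting hairpin microRNA with GFP (miR-neg, the GFP groups), and mice were left unstressed (control) or exposed for 10 days to chronic social defeat stress (CSDS), with 5 samples in each of the 4 groups. In the second experiment the virus carried ZBTB7A (ZBT-OE) or GFP, with 6 samples in each group; the labels give the virus, and the 1 day of subthreshold social defeat (SSDS) comes from the study's methods. A GFAP promoter restricts expression to cells that use it, and how many of the sorted cells carried the virus was not measured here. Each group has 1 list, and no list gives values per sample. The read depth and the spread between samples are therefore unknown from the lists, and no difference between groups below has a replicate check. The 95% intervals (Wilson) count peaks, so they hold counting error and nothing else.

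Assay for transposase-accessible chromatin (ATAC-seq) marks DNA that is not wrapped tightly in nucleosomes, and the promoters of active genes are the classic place to find it. Many mammalian promoters, above all those of housekeeping and developmental genes, lie in CpG islands, stretches that keep a high density of CpG dinucleotides, whereas promoters of tissue-restricted genes such as the olfactory receptors are often poor in CpG. ZBTB7A is a zinc finger transcription factor with a BTB domain that binds DNA and recruits chromatin regulators.

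The promoters of 9 genes show the kinds of sequence that these peaks covered, given as the 250 bases before the TSS, 5′ to 3′, from the RefSeq promoter table (build GRCm38.p6, which has the coordinates of mm10), with each CpG in capitals. The first set lay inside peaks of the ZBT-OE SSDS list that no other list overlapped. Rpl36al encodes a ribosomal protein (chr12:69184068-69184317, minus strand), Nr4a1 an orphan nuclear receptor of the immediate early response (chr15:101266596-101266845, plus strand), Junb an AP-1 subunit (chr8:84978749-84978998, minus strand) and Sox2 a transcription factor of neural progenitors (chr3:34649745-34649994, plus strand).
Rpl36al: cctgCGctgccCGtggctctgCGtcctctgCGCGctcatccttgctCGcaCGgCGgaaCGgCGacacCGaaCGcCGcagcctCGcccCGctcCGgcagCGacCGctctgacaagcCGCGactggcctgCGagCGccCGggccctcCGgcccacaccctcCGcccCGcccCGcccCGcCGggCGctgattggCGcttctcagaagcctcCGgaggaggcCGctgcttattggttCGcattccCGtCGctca
Nr4a1: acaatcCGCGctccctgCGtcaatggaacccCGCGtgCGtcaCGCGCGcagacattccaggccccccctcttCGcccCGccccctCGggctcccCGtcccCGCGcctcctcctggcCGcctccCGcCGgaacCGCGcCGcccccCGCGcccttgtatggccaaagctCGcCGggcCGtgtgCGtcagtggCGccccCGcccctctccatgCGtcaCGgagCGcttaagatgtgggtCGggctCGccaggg
Junb: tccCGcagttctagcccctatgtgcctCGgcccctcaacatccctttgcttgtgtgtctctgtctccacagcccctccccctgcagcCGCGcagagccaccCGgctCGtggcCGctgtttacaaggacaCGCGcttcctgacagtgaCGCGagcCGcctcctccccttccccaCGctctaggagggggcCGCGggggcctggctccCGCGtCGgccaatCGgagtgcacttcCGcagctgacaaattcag
Sox2: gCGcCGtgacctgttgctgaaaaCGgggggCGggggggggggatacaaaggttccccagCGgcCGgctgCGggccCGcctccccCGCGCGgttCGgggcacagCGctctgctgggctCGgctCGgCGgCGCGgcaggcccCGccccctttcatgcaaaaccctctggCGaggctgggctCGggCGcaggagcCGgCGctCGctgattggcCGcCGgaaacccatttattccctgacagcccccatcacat

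The second set lay under narrow peaks of the GFP control list. Kbtbd3 (chr9:4309493-4309742, plus strand) was covered in that list only. Pafah1b1 (chr11:74723859-74724108, minus strand), which encodes the dynein regulator LIS1, lay under narrow peaks in both GFP lists of the knockdown experiment. Wide peaks also covered it, of 121 kb in GFP SSDS and 233 kb in ZBT-OE SSDS.
Kbtbd3: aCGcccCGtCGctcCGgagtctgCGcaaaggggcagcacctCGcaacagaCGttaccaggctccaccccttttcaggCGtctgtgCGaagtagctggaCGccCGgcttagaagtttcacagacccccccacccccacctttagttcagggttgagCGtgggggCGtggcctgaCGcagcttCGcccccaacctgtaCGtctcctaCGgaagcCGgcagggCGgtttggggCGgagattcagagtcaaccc
Pafah1b1: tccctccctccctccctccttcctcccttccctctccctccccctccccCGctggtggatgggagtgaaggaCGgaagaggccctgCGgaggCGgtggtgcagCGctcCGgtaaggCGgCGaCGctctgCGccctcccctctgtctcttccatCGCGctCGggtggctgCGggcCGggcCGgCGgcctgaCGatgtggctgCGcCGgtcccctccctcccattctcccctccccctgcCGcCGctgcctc

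The third set lay inside wide peaks of genes that recurred in most lists. Ercc4 (chr16:13109486-13109735, plus strand), a nuclease subunit of nucleotide excision repair, and Fbxw28 (chr9:109339660-109339909, minus strand), an F-box gene, were the listed gene of such a peak in all 6 lists, and Ccdc89 (chr7:90426062-90426311, plus strand) in 5.
Ercc4: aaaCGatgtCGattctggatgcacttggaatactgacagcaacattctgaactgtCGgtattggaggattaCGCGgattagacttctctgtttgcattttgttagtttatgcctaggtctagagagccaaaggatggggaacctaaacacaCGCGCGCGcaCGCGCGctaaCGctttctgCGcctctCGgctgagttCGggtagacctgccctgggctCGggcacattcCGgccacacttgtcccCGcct
Fbxw28: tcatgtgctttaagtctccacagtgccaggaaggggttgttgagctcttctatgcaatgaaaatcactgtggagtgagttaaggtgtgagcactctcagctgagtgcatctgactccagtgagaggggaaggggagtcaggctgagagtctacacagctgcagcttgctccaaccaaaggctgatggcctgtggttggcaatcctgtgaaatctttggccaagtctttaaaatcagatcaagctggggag
Ccdc89: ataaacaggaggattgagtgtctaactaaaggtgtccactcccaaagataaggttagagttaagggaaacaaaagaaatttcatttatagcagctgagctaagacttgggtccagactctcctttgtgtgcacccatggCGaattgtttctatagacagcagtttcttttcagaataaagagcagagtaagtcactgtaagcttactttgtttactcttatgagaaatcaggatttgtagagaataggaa

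Over these 250 bases, the ZBT-OE SSDS set held 36 CpG (Rpl36al), 34 (Nr4a1), 20 (Junb) and 27 (Sox2). Kbtbd3 held 20 and Pafah1b1 22. In the recurrent set, Ercc4 held 19 CpG, Ccdc89 1 and Fbxw28 0. These genes were picked to show the range, and the counts over all promoters follow below.

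The ZBT-OE SSDS list had the largest share of near-TSS peaks. They made up 21.3% of that list (95% interval 19.3 to 23.5) against 13.0% of the GFP SSDS list (11.4 to 14.8), and 302 peaks against 201 is a ratio of 1.50. The 2 lists were of similar length, so the number and the share moved the same way. In the knockdown experiment the shares were 8.99% (8.30 to 9.73) in GFP control, 9.18% (8.33 to 10.1) in GFP CSDS, 8.54% (7.25 to 10.0) in Zbt-KD control and 9.19% (7.79 to 10.8) in Zbt-KD CSDS. Their numbers were far apart, as were the lengths of the lists: GFP CSDS held 0.671 times as many near-TSS peaks as GFP control, Zbt-KD control 0.239 times as many as GFP control, Zbt-KD CSDS 0.346 times as many as GFP CSDS, and Zbt-KD CSDS 0.970 times as many as Zbt-KD control. The order of these numbers rested on narrow peaks. With peaks of at least 20269 bp only, the narrowest width of the ZBT-OE SSDS list, the 4 ratios were 1.11, 1.02, 1.01 and 1.10, so all of them turned; the last had been near 1 from the start (interval 0.762 to 1.24). With the same limit the ratio of ZBT-OE SSDS to GFP SSDS was 2.75, and the share in GFP SSDS was 9.52%. Among all positions of chromosomes 1 to 19, 17.1% lie within 10 kb of a RefSeq TSS. Of the peaks on these chromosomes below 500 kb, near-TSS peaks were 10.3% in GFP control, 11.1% in GFP CSDS, 10.7% in Zbt-KD control, 11.5% in Zbt-KD CSDS, 16.7% in GFP SSDS and 27.2% in ZBT-OE SSDS. In every list of the knockdown experiment the interval lay below 17.1%, so centres near a TSS were fewer than over all positions. The interval of GFP SSDS (14.7 to 18.9) held that figure, and that of ZBT-OE SSDS (24.7 to 29.9) lay above it. The reason was not tested.

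**Figure D1:**
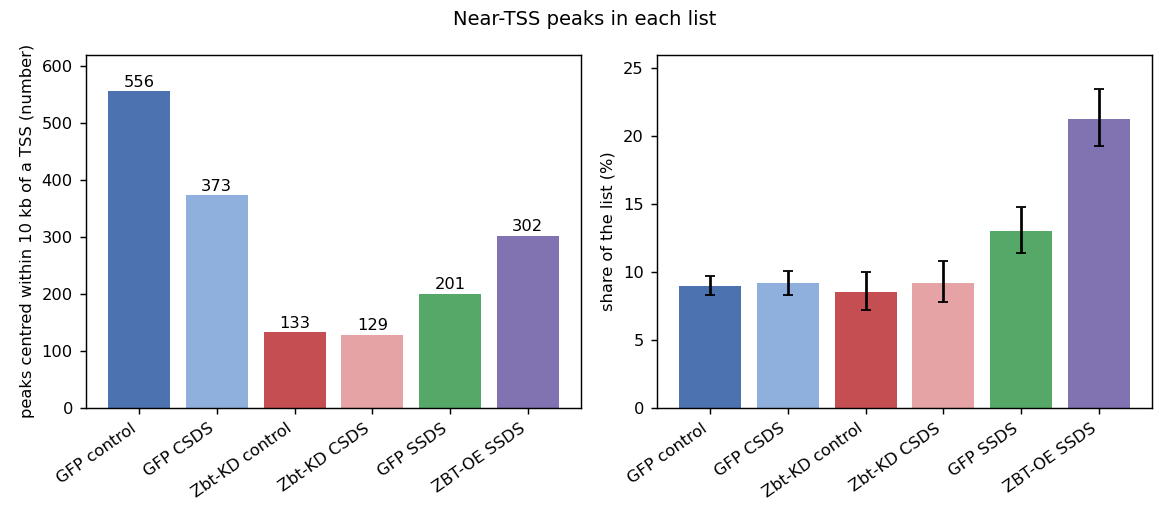
Number of near-TSS peaks in each of the 6 lists (left) and their share of all peaks of the list in percent (right), with 95% Wilson intervals over peaks. GFP control had the most near-TSS peaks, 556, and ZBT-OE SSDS the largest share, 21.3%.

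The peaks differed in width from list to list, which bears on every comparison between lists. Near-TSS peaks had a median width of 2072.5 bp in GFP control, and those of GFP CSDS one of 3974 bp. It was 38510 bp in Zbt-KD control, 52334 bp in Zbt-KD CSDS, 23850 bp in GFP SSDS and 37050 bp in ZBT-OE SSDS. GFP control reached down to a near-TSS peak of 687 bp and GFP CSDS to 1174 bp. The narrowest measured 6429 bp in Zbt-KD control, 6526 bp in Zbt-KD CSDS, 8473 bp in GFP SSDS and 20350 bp in ZBT-OE SSDS, and all 6 values were close to the narrowest peak of each whole list. A site open over 1 kb could thus be listed at its own width only in GFP control, and elsewhere only inside a wider peak. Peaks below 2 kb numbered 271 in GFP control and 86 in GFP CSDS, and 0 in the other lists. At the other end, 27, 40, 39, 43, 48 and 64 near-TSS peaks were 100 kb or wider in GFP control, GFP CSDS, Zbt-KD control, Zbt-KD CSDS, GFP SSDS and ZBT-OE SSDS. Width and treatment cannot be told apart here, since each group has 1 list with 1 lower limit.

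**Figure D2:**
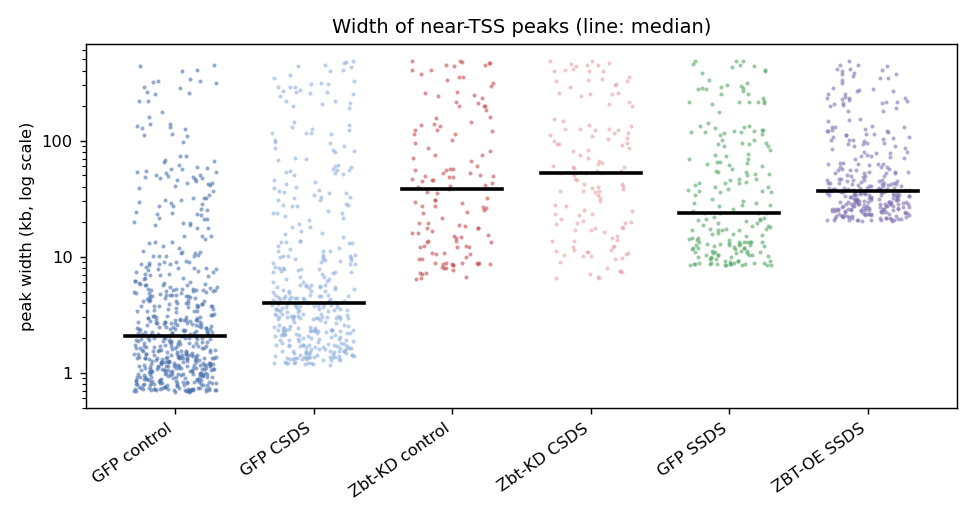
Width of every near-TSS peak in kb on a log scale, by list, with 1 point per peak (spread sideways at random) and a line at the median. The lower edge of the points rises from 687 bp in GFP control to 20350 bp in ZBT-OE SSDS.

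The limits of the rule cut through a continuous range. The outermost peak inside the distance limit in the GFP control list was centred at -9959 bp from the TSS of Actbl2 (negative distances are upstream), and the nearest one outside it at -10044 bp from Bcl2a1d. In the ZBT-OE SSDS list these were Mfap3l at -9940 bp and A930006K02Rik at 10010 bp. The widest near-TSS peak of that list, at Olfr398, spanned 483314 bp, and the narrowest excluded for width, at Jag1, spanned 500002 bp. Between 3 and 11 peaks per list were centred near a TSS but were too wide.

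Most near-TSS peaks were not centred on a promoter. This follows in part from the rule, which allows centres up to 10 kb from a TSS, and the share for evenly placed centres was not computed. By the listed annotation of the centre, 264 of 556 were intergenic in GFP control, 163 intronic and 53 promoter peaks (9.53%, 7.36 to 12.3). In GFP CSDS, 27 of 373 were promoter peaks (7.24%, 5.02 to 10.3), in Zbt-KD control 10 of 133 (7.52%, 4.14 to 13.3), in Zbt-KD CSDS 15 of 129 (11.6%, 7.17 to 18.3), in GFP SSDS 16 of 201 (7.96%) and in ZBT-OE SSDS 26 of 302 (8.61%). The promoter share among near-TSS peaks thus had overlapping intervals in the 4 lists of the knockdown experiment, and was close in the 2 lists of the second. Introns held 42.8% of near-TSS peaks in GFP SSDS (36.1 to 49.7) and 44.0% in ZBT-OE SSDS (38.6 to 49.7), and 25.6% to 36.5% in the other 4 lists, where the highest, GFP CSDS, had an interval of 31.7 to 41.5 that overlapped both. Intergenic centres were 37.8% in GFP SSDS and 35.8% in ZBT-OE SSDS, and 45.3% to 54.9% in the other lists. Within 1 kb of a TSS lay 113 peaks in GFP control (20.3%, 17.2 to 23.9), 59 in GFP CSDS (15.8%, 12.5 to 19.9), 17 in Zbt-KD control, 18 in Zbt-KD CSDS, 28 in GFP SSDS and 46 in ZBT-OE SSDS (15.2%). Centres lay upstream of the TSS in 43.4% to 51.2% of near-TSS peaks. A RefSeq TSS lay inside 300 of 302 near-TSS peaks of ZBT-OE SSDS (99.3%), 179 of 201 of GFP SSDS (89.1%), 119 of 133 of Zbt-KD control, 113 of 129 of Zbt-KD CSDS, 173 of 373 of GFP CSDS (46.4%) and 204 of 556 of GFP control (36.7%). These shares follow in part from the rule: a peak wider than 20 kb whose centre is within 10 kb of a TSS reaches that TSS, and every near-TSS peak of ZBT-OE SSDS was that wide. They are a description of width and not of where chromatin was open. The median ZBT-OE SSDS near-TSS peak covered 3 TSSs.

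Base composition set the near-TSS peaks of the second experiment apart. Median GC content was 47.3% in ZBT-OE SSDS and 44.8% in GFP SSDS. It was 43.8% in GFP control and 43.1% in GFP CSDS, and in the knockdown lists, which hold no narrow peaks, 40.7% without stress and 40.9% with it, where chromosomes 1 to 19 average 41.9%. CpG density followed: 15.1 CpG per kb in ZBT-OE SSDS and 12.1 in GFP SSDS, against 7.03 to 7.36 in the other lists and 8.51 over chromosomes 1 to 19. The other peaks of each list, on the same chromosomes and below the same width, had medians of 39.4% to 41.6% GC and 5.47 to 6.69 CpG per kb, so near-TSS peaks were richer in both than the rest of their own list in all 6 lists. To measure repetition, 31-base words were sampled from each peak and counted as repeated if they occur more than once in the genome. The median share of repeated words was 10.0% in near-TSS peaks of ZBT-OE SSDS against 22.0% in its other peaks, and 14% against 20.0% in GFP SSDS. The gap was small in GFP control (14% against 16.0%), GFP CSDS (18.0% in both) and Zbt-KD control (20.0% against 21.0%), and turned in Zbt-KD CSDS (26% against 22.0%). A LINE element lay at the centre of 25 of 302 near-TSS peaks of ZBT-OE SSDS (8.28%), a SINE, the gene-rich class of repeat, at 42 (13.9%). In GFP control these were 116 of 556 (20.9%) and 27 (4.86%).

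**Figure D3:**
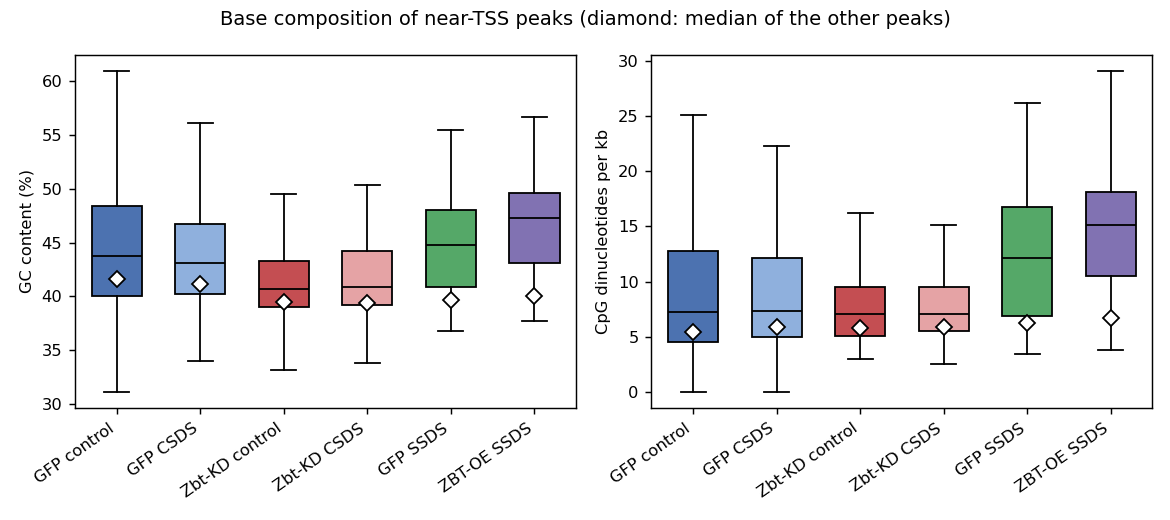
GC content in percent (left) and CpG dinucleotides per kb (right) of near-TSS peaks in each list. Boxes span the quartiles with a line at the median, whiskers reach the last value within 1.5 box lengths, more extreme peaks are not drawn, and diamonds mark the median of the other peaks on chromosomes 1 to 19 below 500 kb; the ZBT-OE SSDS median is 47.3% GC.

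In both GFP lists of the knockdown experiment, which hold the narrow peaks, closeness to the TSS went with CpG density over peaks of all widths. In GFP control the 113 peaks within 1 kb had a median of 29.3 CpG per kb and 50.8% GC, with a median of 0% of repeated words, whereas those 5 to 10 kb away had 6.17 CpG per kb, 42.8% GC and 18.0% of repeated words. The 53 promoter peaks of that list had 48.0 CpG per kb. In GFP CSDS the 59 peaks within 1 kb had 16.8 CpG per kb. No such gradient was present in the knockdown lists, whose peaks within 1 kb had 5.54 CpG per kb (Zbt-KD control, 17 peaks, median width 44667 bp) and 6.69 (Zbt-KD CSDS, 18 peaks, 92550 bp). The gradient was nearly flat in ZBT-OE SSDS, with 15.8 CpG per kb within 1 kb, 15.9 from 1 to 5 kb and 13.1 beyond. Wide peaks looked alike everywhere: those of 100 to 500 kb had 6.51 to 7.91 CpG per kb and 40.1% to 41.4% GC in all 6 lists, ZBT-OE SSDS included. Its peaks of 20 to 100 kb, 238 of its 302, had 16.3 CpG per kb, against 9.25 in the 62 peaks of that width in GFP SSDS and 6.58 to 8.01 in the other 4 lists. At this width GC content was 40% in GFP control, 42.2% in GFP CSDS, 40.2% in Zbt-KD control, 41.3% in Zbt-KD CSDS, 42.7% in GFP SSDS and 48.2% in ZBT-OE SSDS, so the knockdown lists were not below GFP control. At 2 to 20 kb, where ZBT-OE SSDS had no peaks, the 91 peaks of GFP SSDS had 16.7 CpG per kb and 47.1% GC. The lists of the knockdown experiment had 6.94 to 8.36 CpG per kb at that width.

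The 1694 peaks listed 906 genes, of which 638 appeared in 1 list, 163 in 2, 57 in 3, 21 in 4, 13 in 5 and 14 in 6. Protein-coding genes made up 84.6% to 88.1% of near-TSS peaks in each list. Odorant receptors (Olfr) and vomeronasal receptors (Vmn), the large gene families of smell and pheromone detection, stood out in the knockdown experiment: 136 of 556 near-TSS peaks in GFP control (24.5%, 21.1 to 28.2), 77 of 373 in GFP CSDS (20.6%, 16.8 to 25.0), 30 of 133 in Zbt-KD control (22.6%, 16.3 to 30.4) and 30 of 129 in Zbt-KD CSDS (23.3%, 16.8 to 31.3). In GFP SSDS they were 19 of 201 (9.45%, 6.14 to 14.3) and in ZBT-OE SSDS 13 of 302 (4.30%, 2.53 to 7.22). Among the other peaks of the 6 lists, in the same order, they were 4.25%, 3.25%, 4.68%, 4.93%, 3.19% and 3.71%. GFP SSDS was thus also above its own other peaks, and the interval of ZBT-OE SSDS held the value of its own. For scale, 6.11% of the positions within 10 kb of any TSS lie within 10 kb of one of the 1475 Olfr and Vmn genes of chromosomes 1 to 19. The first 4 lists and GFP SSDS had intervals above this figure, GFP SSDS narrowly, and that of ZBT-OE SSDS held it. Zinc finger genes named Zfp were 2.26% (3 of 133, Zbt-KD control) to 3.48% (7 of 201, GFP SSDS) of near-TSS peaks and 1.16% to 1.78% of the other peaks. MicroRNA genes were 12 of 302 in ZBT-OE SSDS (3.97%, 2.29 to 6.82), 4 of 133 in Zbt-KD control (3.01%, 1.18 to 7.48), 3 of 129 in Zbt-KD CSDS (2.33%), 4 of 201 in GFP SSDS (1.99%), 4 of 373 in GFP CSDS (1.07%) and 3 of 556 in GFP control (0.540%, 0.184 to 1.57), beside 2.97% to 4.40% of the other peaks. Solute carriers (Slc), which move amino acids, sugars and ions across membranes, counted 15 of 556 peaks in GFP control (2.70%, 1.64 to 4.40; 1.37% of its other peaks) and 2 of 373 in GFP CSDS (0.536%, 0.147 to 1.93; 1.31%). They were 1 of 133 in Zbt-KD control, 0 of 129 in Zbt-KD CSDS (up to 2.89%), 2 of 201 in GFP SSDS and 3 of 302 in ZBT-OE SSDS.

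Several of these 15 solute carrier peaks belonged to the same gene, since 128 genes of the GFP control list had more than 1 near-TSS peak, up to 7 at Trim2, a ubiquitin ligase gene. The genes in this paragraph were picked after their values were seen. Slc6a9 encodes the glycine transporter GlyT1 that astrocytes use. In GFP control its TSS lay under a peak of 1.15 kb with a fold enrichment of 1.54 and 94.1 CpG per kb. GFP CSDS and Zbt-KD control had no peak over it, and the other 3 lists covered it inside peaks of 142 to 153 kb. Slc17a5, the lysosomal sialic acid exporter, had 4 near-TSS peaks in GFP control and 1 in Zbt-KD control (12.2 kb, fold enrichment 2.13), while every list had some peak over its TSS. Slc2a12, a glucose transporter, had near-TSS peaks in 4 lists, at a fold enrichment of 1.70 and 1.92 for 2 peaks in GFP CSDS, 1.90 in GFP SSDS, 1.77 in ZBT-OE SSDS and 1.65 to 1.88 for 3 peaks in GFP control. Both knockdown lists covered its TSS inside wider peaks, Zbt-KD control one of 155 kb (2.06) and Zbt-KD CSDS one of 156 kb (2.08). The GFP SSDS and ZBT-OE SSDS lists held 1 near-TSS peak each at Slc2a12, of 13.9 kb (GFP SSDS) or 36.9 kb (ZBT-OE SSDS).

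A set of 14 genes had near-TSS peaks in every list, several of them at almost the same boundaries. Pramef6, of the PRAME family, headed the order of recurrent genes, with a peak of 446 to 449 kb on chromosome 4 in each list and a fold enrichment (signal over the caller's background, comparable only within a list) of 4.30 in GFP control, 4.78 in GFP CSDS, 4.67 in Zbt-KD control, 4.30 in Zbt-KD CSDS, 4.00 in GFP SSDS and 4.38 in ZBT-OE SSDS. Ercc4 had a peak of 45.3 to 46.5 kb on chromosome 16 in each list, at 3.36 to 3.50. Olfr117 had one of 439 or 440 kb on chromosome 17, at 3.01 to 3.55, that covered 20 TSSs. Rn4.5s, a small RNA gene on chromosome 6, had the strongest near-TSS peak of GFP CSDS (4.99), Zbt-KD CSDS (5.50) and ZBT-OE SSDS (7.59). Of the sampled words in those Rn4.5s peaks, at least 88.0% were repeated in the genome. Repetition varied widely among the strongest near-TSS peaks. Gm10778 (5.17 in GFP SSDS, 5.66 in ZBT-OE SSDS) had 98.0% and 96.0%, Defa37, a defensin gene (5.83 in Zbt-KD control), 94.0%, and Gm2083 (5.12 in Zbt-KD CSDS) 98.0%. Olfr74 (4.41 in GFP control) had 32.0%, and Txndc11 and Rpusd4, the strongest of Zbt-KD control, 8.0% each. Boundaries were not shared throughout: the Rn4.5s peaks in the 6 lists ran from 24.5 to 39.6 kb and those of Klf17 from 132 to 153 kb, and Rnf157 had peaks of 3.43 and 1.09 kb in GFP control, 22.2 kb in GFP CSDS and 39.5 to 46.1 kb in the other lists. Emc4 (ER membrane complex), Zfp426, Pkd2l1 (a cation channel), Klf17 (a Krüppel-like factor), Rnf157 (a ubiquitin ligase), Chst9 (a sulfotransferase), Fbxw28, 4930515G16Rik and 4933421I07Rik were also members in all 6 lists, while Acmsd, an enzyme of tryptophan breakdown, Mrc1, the mannose receptor of macrophages, Ccdc89, 4930592A05Rik, Zfp189 and Olfr398 were members in 5. The part of repeated sequence in their recurrence was not tested.

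Mir138-1, which gives rise to a brain-enriched microRNA, was the listed gene of a peak of 41.9 to 43.2 kb in each list, at a fold enrichment of 2.87 in GFP control, 2.34 in GFP CSDS, 2.32 in Zbt-KD control, 2.10 in Zbt-KD CSDS, 1.81 in GFP SSDS and 2.29 in ZBT-OE SSDS. Mir9-1, a microRNA gene of neural progenitors and named after its values were seen, was the listed gene of 1 peak only, in ZBT-OE SSDS, of 46.1 kb at 1.55. Their mature products from RefSeq are printed with the seed, bases 2 to 8, in capitals. The hairpin of Mir138-1 lay under a peak in 6 lists and that of Mir9-1 in 1.
mmu-miR-138-5p: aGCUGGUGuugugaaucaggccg
mmu-miR-9-5p: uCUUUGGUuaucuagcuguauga

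Overexpression of ZBTB7A was compared with GFP under subthreshold stress by asking which near-TSS peaks of each list were overlapped, by at least 1 bp, by no peak at all of the other list. Of the 302 near-TSS peaks of ZBT-OE SSDS, 192 were absent from GFP SSDS (63.6%, 58.0 to 68.8), whereas of all 1110 peaks of that list on the same chromosomes and below the same width 34.0% were absent. Of the rest, 80 were met by a near-TSS peak and 30 by another peak. In the other direction, 73 of 201 near-TSS peaks of GFP SSDS were absent from ZBT-OE SSDS (36.3%, 30.0 to 43.2), beside 29.5% of all its peaks. The ZBT-OE SSDS peaks were also counted by width. From 20 to 50 kb, 168 of 196 near-TSS peaks were absent from GFP SSDS (85.7%, 80.1 to 89.9) against 159 of 316 other peaks (50.3%, 44.8 to 55.8). From 50 to 100 kb the counts were 21 of 42 (50%, 35.5 to 64.5) against 17 of 127 (13.4%, 8.53 to 20.4). At 100 kb or wider the intervals overlapped, with 3 of 64 (4.69%, 1.61 to 12.9) against 9 of 365 (2.47%, 1.30 to 4.62). In the GFP SSDS list the shares were closer, with 12 of 37 near-TSS peaks (32.4%) and 76 of 242 other peaks (31.4%) absent from ZBT-OE SSDS at 20 to 50 kb, and with peaks of at least 20269 bp only its near-TSS absence was 14.5%, beside 15.3% of all its peaks of that width.

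**Figure D4:**
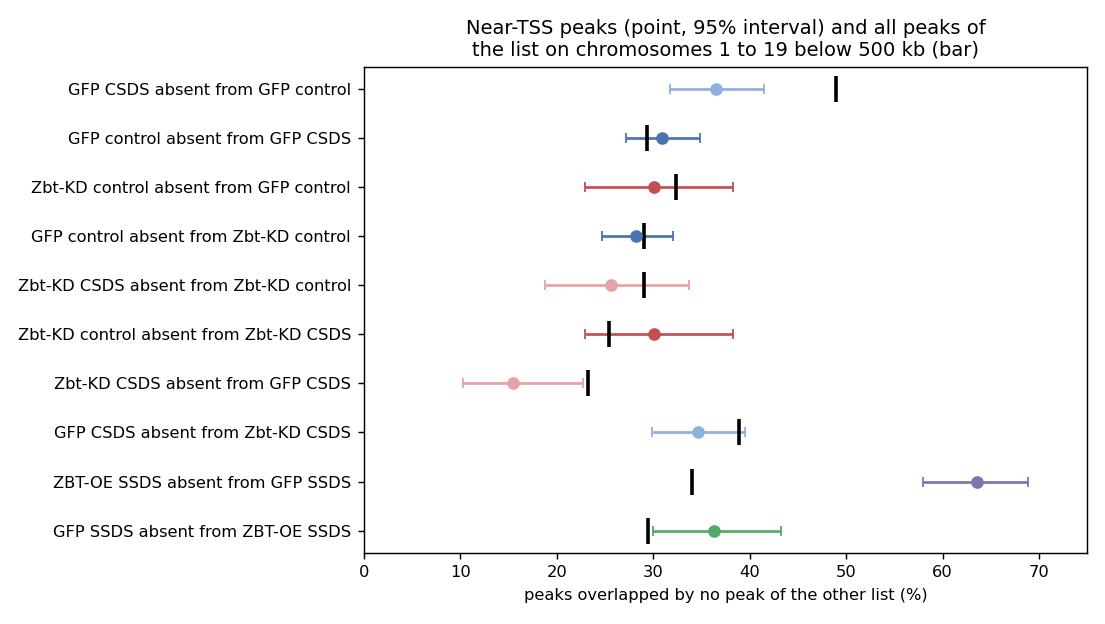
Share of peaks overlapped by no peak of the other list, in percent, for both directions of the 5 pairs of lists. Points with 95% Wilson intervals are near-TSS peaks and bars are all peaks of that list on chromosomes 1 to 19 below 500 kb; for ZBT-OE SSDS against GFP SSDS the point is at 63.6% and the bar at 34.0%.

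The 192 absent peaks of ZBT-OE SSDS were narrower and richer in CpG than the 110 that were found. Their median was 29907 bp, 48.6% GC and 16.7 CpG per kb, with 8.0% of repeated words, while the found peaks had 112155.5 bp, 42.6% GC, 9.06 CpG per kb and 18.0%. Fold enrichment was lower in the absent set, at a median of 1.85 against 2.28. Only 2 of the 192 belonged to an odorant or vomeronasal receptor (1.04%), against 11 of the 110 (10.0%). The 73 near-TSS peaks that GFP SSDS had and ZBT-OE SSDS lacked were rich in CpG as well (46.4% GC, 14.6 CpG per kb, median 12170 bp), against 9.34 CpG per kb in the 128 found. Both lists of the second experiment thus held CpG-rich near-TSS peaks that the other lacked, 192 in the one and 73 in the other. Of the 73, 57 were narrower than 20 kb, below any peak of the ZBT-OE SSDS list. In that bin 62.6% of near-TSS peaks and 66.5% of other peaks of GFP SSDS were absent. With peaks of at least 20269 bp only, 16 of the GFP SSDS peaks remained and the 192 were unchanged, so the 2 counts are not on one scale. Width moved with absence too, and within the bins below 100 kb above, the absent share of ZBT-OE SSDS was higher for near-TSS peaks than for other peaks. The parts of width, GC content and peak strength were not tested.

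**Figure D5:**
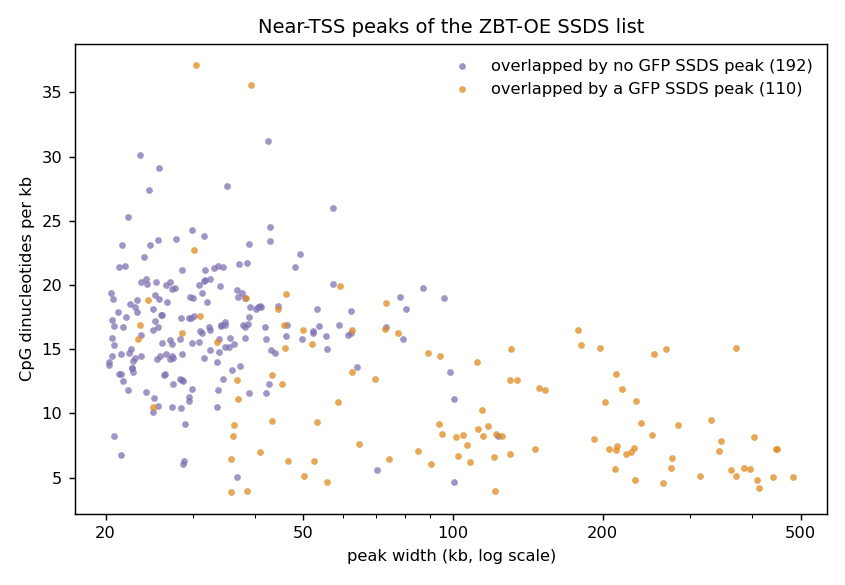
Width in kb (log scale) and CpG dinucleotides per kb of each near-TSS peak of the ZBT-OE SSDS list, coloured by whether a GFP SSDS peak overlaps it. The 192 peaks without overlap gather below 100 kb at a median of 16.7 CpG per kb, and the 110 with overlap reach 483314 bp at a median of 9.06.

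Promoter sequence gave the same contrast. Among 233 promoters of ZBT-OE SSDS near-TSS genes in the RefSeq table (233 of 301 genes matched), 127 (54.5%, 48.1 to 60.8) held a GC box, searched as GGGCGG on both strands of the 300 bases from 250 before to 50 after the TSS. In GFP SSDS the count was 66 of 156 (42.3%, 34.8 to 50.2). Over all 31396 promoters of chromosomes 1 to 19 in the table, 36% held one. In the knockdown experiment it was 29.5% (24.2 to 35.4) in GFP control, 31.1% in GFP CSDS, 25.7% in Zbt-KD control and 26% in Zbt-KD CSDS. For the genes of the absent ZBT-OE SSDS peaks, 95 of 149 promoters held a GC box (63.8%, 55.8 to 71.0), with a median of 19.0 CpG in 300 bases, against 32 of 84 (38.1%, 28.4 to 48.8) and 6.5 CpG for the found ones. For the peaks that GFP SSDS had and ZBT-OE SSDS lacked, it was 33 of 61 (54.1%, 41.7 to 66), against 33 of 95 (34.7%, 25.9 to 44.7) for the found ones. For peaks that no other list overlapped it was 31 of 46 in GFP SSDS (67.4%, 53.0 to 79.1) and 93 of 145 in ZBT-OE SSDS (64.1%, 56.1 to 71.5). The GC box was thus not particular to the absent peaks of ZBT-OE SSDS. The CCAAT box (CCAAT, both strands) varied less, between 38.6% (ZBT-OE SSDS) and 45.7% (Zbt-KD control) beside 37.3% of all promoters. The TATA box (TATAAA, both strands) was in 12% of ZBT-OE SSDS and 8.33% of GFP SSDS promoters, against 15.8% to 24% in the knockdown experiment and 13.6% of all. The letters of the GC box contain a CpG, so it is not independent of the CpG counts, and a match marks no bound site.

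The strongest of the absent ZBT-OE SSDS peaks lay at Rpl36al on chromosome 12 (38.2 kb, fold enrichment 3.35), at Imp3, of the small nucleolar complex that processes ribosomal RNA (chromosome 9, 22.7 kb, 3.25), and at Rangap1, the GTPase activator of nuclear transport (chromosome 15, 20.4 kb, 3.15). Each covered 2 to 6 TSSs. The near-TSS peaks centred closest to a start site were at 4930481A15Rik (chromosome 19, 1 bp, 1.30), at Abcb6, a porphyrin transporter (chromosome 1, 6 bp, 2.03), and at Ifi35, an interferon-induced gene (chromosome 11, -8 bp, 3.11). None of these 6 loci had a peak in any of the other 5 lists. In all, 186 of the 302 near-TSS peaks of ZBT-OE SSDS overlapped no peak of any other list (61.6%, 56.0 to 66.9), compared with 55 of 201 in GFP SSDS (27.4%, 21.7 to 33.9), 29 of 556 in GFP control (5.22%), 7 of 373 in GFP CSDS, 9 of 133 in Zbt-KD control and 5 of 129 in Zbt-KD CSDS. Of all peaks below 500 kb on the same chromosomes, the share without any overlap was 29.8% in ZBT-OE SSDS, 14.5% in GFP SSDS, 5.93% in GFP control, 5.69% in GFP CSDS, 4.82% in Zbt-KD control and 5.70% in Zbt-KD CSDS. The near-TSS share was thus higher than that of the whole list in both lists of the second experiment, in GFP control it was close to it, and in GFP CSDS it was lower (1.88%, 0.912 to 3.82). Conversely, 252 of 556 near-TSS peaks of GFP control were overlapped in all 5 other lists (45.3%), beside 44.5% of all its peaks, and 49 of 302 of ZBT-OE SSDS (16.2%), beside 38.1%.

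Genes of several familiar groups were among these 186 peaks, and the ones in this paragraph were picked after their values were seen, apart from Nr4a1. Immediate early transcription factors were represented by Nr4a1 (37.7 kb on chromosome 15, fold enrichment 2.19), Fosb (37.1 kb, 2.21) and Junb (24.4 kb, 1.45). Adaptors of cytokine and Toll-like receptor signalling were Traf2 (23.5 kb, 2.32), Traf4 (42.7 kb, 1.78) and Myd88 (34.8 kb, 1.37, centred at -135 bp). Genes of metal and oxidant defence were Mt2 (31.3 kb, 1.58), Gpx4 (34.0 kb, 1.66) and Prdx3 (28.9 kb, 2.36). These values lie on both sides of the list's near-TSS median of 2.01. The groupings in this paragraph were made by hand, and none was tested for enrichment. The peaks named here covered from 1 TSS (Nr4a1, Fosb, Sox2, Mertk and Cst3) to 10 (Daxx) and 11 (Traf4). Some were centred far from the TSS of the listed gene, at 9814 bp (Rpl10a), -7859 bp (Aldh2) and -6183 bp (Mt2). A listed gene is thus not shown to be the one that a peak belongs to. The counts of the fixed lists below are the ones to read for frequency. There, 0 of 15 NF-kB and inflammation genes and 1 of 12 housekeeping genes were near-TSS genes in ZBT-OE SSDS. Mertk, a receptor for the uptake of dying cells and synapses, was centred at -429 bp (22.2 kb, 1.53), and Cst3, the protease inhibitor cystatin C, at -500 bp (28.8 kb, 1.53). Sox2 lay under 23.5 kb at 1.61, Aldh2, the mitochondrial aldehyde dehydrogenase, was the listed gene of 34.8 kb at 2.07, and Sdc4, a heparan sulfate proteoglycan, of 28.5 kb at 2.11. Of genes that all cells use there were Tuba1b (tubulin, 2.24), Rpl10a (ribosome, 2.26), Mrpl12 and Mrpl48 (mitochondrial ribosome, 1.98 and 2.22), Hist2h3c2 (histone H3, 1.39), the small nucleolar RNAs Snord104 (2.31) and Snora81 (1.95), Vhl (2.14), Daxx (2.17), the cold-inducible RNA-binding protein gene Cirbp (1.35) and Atg4c, an autophagy protease (3.13, centred 64 bp from its TSS).

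The peaks that GFP SSDS had and ZBT-OE SSDS lacked were led by Vmn1r47, a vomeronasal receptor (chromosome 6, 46.3 kb, fold enrichment 2.90), Khdc4, an RNA-binding protein gene (chromosome 3, 9.93 kb, 2.76), and Cldnd1 (chromosome 16, 21.3 kb, 2.72). Khdc4 had a peak in no other list. Slc7a10, a transporter of small neutral amino acids picked after its values were seen, was likewise the listed gene of a peak in GFP SSDS alone (10.4 kb, 1.47). Of these 4 peaks, 2 were narrower than 20350 bp, the narrowest near-TSS peak of the other list.

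Chronic stress in GFP mice was compared next. Of the 373 near-TSS peaks of GFP CSDS, 136 were absent from GFP control (36.5%, 31.7 to 41.5), below the 48.9% of all its peaks. In the reverse direction, 172 of 556 near-TSS peaks of GFP control were absent from GFP CSDS (30.9%, 27.2 to 34.9), beside 29.4% of all. Near-TSS peaks were thus overlapped more often than the rest of the GFP CSDS list, and about as often as the rest in the GFP control list. With peaks of at least 20269 bp only, the shares were 14.6% and 5.00%, beside 16.9% and 3.99% of all peaks of that width. Within 1 kb of a TSS, 48 of 113 GFP control peaks were absent from GFP CSDS (42.5%, 33.8 to 51.7). In GFP CSDS 18 of 59 were absent from GFP control (30.5%, 20.3 to 43.1). Narrow peaks made up most of these 113: of the 72 GFP control peaks below 2 kb there, with a median of 58.3 CpG per kb and 58.9% GC, 37 had no peak in GFP CSDS (51.4%, 40.1 to 62.6), and 35 had none in Zbt-KD control and also 35 none in Zbt-KD CSDS (48.6% each, 37.4 to 59.9). GFP SSDS lacked 21 and ZBT-OE SSDS 20 of the 72 (29.2% and 27.8%). Of all 2731 GFP control peaks below 2 kb, 38.6% had no peak in GFP CSDS, 36.3% none in Zbt-KD control, 36.9% none in Zbt-KD CSDS, 25.1% none in GFP SSDS and 30.1% none in ZBT-OE SSDS. For GFP CSDS and for both knockdown lists, the interval of the 72 lay above the share of all narrow peaks. Since the narrowest GFP CSDS peak is wider than the narrowest GFP control peak, the part of that limit in these absences was not tested.

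Among the near-TSS peaks that GFP control had and GFP CSDS lacked, 9230019H11Rik (chromosome 10, 1.42 kb, fold enrichment 2.64), Ythdf3, a reader of N6-methyladenosine in RNA (chromosome 3, 0.704 kb, 2.52), and Kdm4a, a histone lysine demethylase (chromosome 4, 4.90 kb, 2.48), were the strongest. Ythdf3 had 125 CpG per kb, no peak in any other list, and its centre lay in the 5′ UTR, 139 bp from the TSS. The Kdm4a peak was not overlapped in Zbt-KD control either, while Zbt-KD CSDS had a peak of 7.57 kb (2.13) over the same TSS. GFP SSDS and ZBT-OE SSDS covered that TSS inside peaks of 223 and 298 kb. GFP CSDS had a separate near-TSS peak listed at Kdm4a (5.08 kb, 1.57), which did not cover its TSS. Other narrow peaks close to a TSS, named after their values were seen, were Kbtbd3 (0.786 kb, 2.46, 72.5 CpG per kb), Ebag9 (0.699 kb, 2.26, centred at -15 bp) and Terf1, a telomere-binding protein gene (0.753 kb, 2.09). The peaks that GFP CSDS alone of the pair had were led by Mir6546 (chromosome 1, 7.77 kb, 2.63), Tbc1d32, a gene of cilia (chromosome 10, 13.1 kb, 2.27), and Gstk1, a glutathione transferase (chromosome 6, 1.19 kb, 2.19). Of the sampled words in the Mir6546 peak 88.0% were repeated, and in the Gstk1 peak 0%. The closest centres to a TSS were at Hsd3b3 and 5730507C01Rik (both -1 bp) and Epha6, an ephrin receptor (-6 bp), in GFP control, and at Ankmy2 (6 bp), 4930577N17Rik (10 bp) and Apol6 (82 bp) in GFP CSDS. The TSS of Ankmy2 lay under a peak in both lists, of 1.60 kb in GFP CSDS (1.88) and of 0.688 kb in GFP control (1.79), where the list names the gene as its neighbour Bzw2.

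Knockdown of Zbtb7a in unstressed mice gave 40 of 133 near-TSS peaks of Zbt-KD control absent from GFP control (30.1%, 22.9 to 38.3), beside 32.4% of all its peaks. In the other direction 157 of 556 were absent (28.2%, 24.7 to 32.1), beside 29.0%. Both intervals held the value of the whole list. With peaks of at least 20269 bp only, the shares were 15.9% and 5.00%, beside 18.6% and 3.65% of all peaks of that width. The strongest absent peaks of Zbt-KD control were at Txndc11, a thioredoxin-domain gene (chromosome 16, 9.57 kb, fold enrichment 6.64), Rpusd4, a mitochondrial RNA pseudouridine synthase (chromosome 9, 70.5 kb, 6.41), and Cldnd1 (chromosome 16, 40.6 kb, 3.0). The first 2 were the highest fold enrichments among all near-TSS peaks of that list, with 8.0% of repeated words in each. Txndc11 had a peak in no other list, and Rpusd4 was covered elsewhere only in GFP CSDS (91.6 kb, 2.65). The Cldnd1 peak was overlapped in 3 other lists, of which only GFP SSDS had a peak over a TSS of the gene. These same 3 peaks were also the strongest that Zbt-KD control had and Zbt-KD CSDS lacked, and both comparisons share the Zbt-KD control list. Map2, the dendritic microtubule gene, was the listed gene of a 12.3 kb peak over its TSS in Zbt-KD control (2.42) and of a 3.05 kb intronic peak in GFP CSDS (1.64).

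Stress after knockdown gave 33 of 129 near-TSS peaks of Zbt-KD CSDS absent from Zbt-KD control (25.6%, 18.8 to 33.7), beside 29.1% of all, and 40 of 133 the other way (30.1%, 22.9 to 38.3), beside 25.4%. The peaks that Zbt-KD CSDS alone of this pair had were led by Kdm4a (2.13), Gm5409 (chromosome 6, 12.4 kb, 2.06) and Rnls, an oxidase gene (chromosome 19, 11.0 kb, 1.93). Knockdown within stressed mice gave 20 of 129 near-TSS peaks of Zbt-KD CSDS absent from GFP CSDS (15.5%, 10.3 to 22.7), beside 23.2%, and 129 of 373 the other way (34.6%, 29.9 to 39.5), beside 38.9%. With peaks of at least 20269 bp only, the near-TSS absences were 4.44% and 7.87% in this pair, beside 11.1% and 10.6% of all peaks of that width. Between the knockdown lists they were 11.1% and 15.9%, beside 15.5% and 14.8%. None of the 18 Zbt-KD CSDS peaks within 1 kb of a TSS was absent from GFP CSDS (0%, 0 to 17.6), and 24 of the 59 of GFP CSDS were absent from Zbt-KD CSDS (40.7%, 29.1 to 53.4). Of the 20, 9 were at odorant or vomeronasal receptors (45.0%), against 21 of the 109 that were found (19.3%). The other way the receptor share was 18.6% of the absent and 21.7% of the found peaks. It also went both ways elsewhere: 16.2% against 23.2% for GFP CSDS against GFP control, and 31.4% against 21.4% in reverse. The strongest of the 20 were at Gm5409 (2.06), Gbe1, the glycogen branching enzyme (chromosome 16, 75.3 kb, 2.04), and Olfr58 (chromosome 9, 123 kb, 1.93). GFP CSDS peaks that Zbt-KD CSDS lacked were led by 9130204L05Rik (chromosome 3, 4.67 kb, 4.64, with 96.0% of repeated words), Pafah1b1 (chromosome 11, 1.31 kb, 2.32, with 0%) and Olfr1501 (chromosome 19, 126 kb, 2.22). The Pafah1b1 promoter was under a narrow peak in GFP control too (1.15 kb, 2.12) and under none in Zbt-KD control. Both lists of the second experiment covered it, inside peaks of 121 kb (2.40) and 233 kb (2.43).

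Fixed lists of genes were rare among these peaks, as genes were in general: of 24963 RefSeq genes on chromosomes 1 to 19, 0.493% (Zbt-KD CSDS) to 1.26% (GFP control) were the listed gene of a near-TSS peak, and 4.34% (GFP control) to 9.83% (ZBT-OE SSDS) had a TSS under any peak. Against these shares of all genes, lists of 8 to 15 genes are too short to show a lack or an excess. Active promoters are the classic place of open chromatin, yet none of 12 housekeeping genes had a TSS under any peak in the first 5 lists. The reason was not tested. Of 12 astrocyte markers, none had a peak over its TSS in the first 5 lists and 1 did in ZBT-OE SSDS: Atp1b2, which encodes the sodium pump subunit that the ACSA-2 antibody recognises, lay under a 53.7 kb peak on chromosome 11 at 2.89, centred at -211 bp. Of 10 neuronal markers, Map2 alone was covered or listed, and peaks of 300 kb (GFP SSDS) and 298 kb (ZBT-OE SSDS) also held its TSS. No marker of microglia, the oligodendrocyte lineage or endothelium had a peak over its TSS or was a near-TSS gene in any list. The label of the cells could therefore not be checked from these peaks. Of 12 genes of ion and glutamate homeostasis, Atp1b2 alone was a near-TSS gene. Of 15 genes of NF-kB signalling and inflammation and of 14 genes that the study names in any tissue or cell type, 0 were near-TSS genes in any list. Peaks that were not near-TSS peaks of these genes held the TSS of Relb, an NF-kB subunit, in both lists of the second experiment, and those of C4b, a complement component, and Fkbp5, a glucocorticoid-induced chaperone, in ZBT-OE SSDS. Of 12 housekeeping genes 1 was, Actb in ZBT-OE SSDS (38.4 kb, 1.42), and of 12 genes of the glucocorticoid and immediate early response 1 was, Nr4a1 in the same list. All 3 that were near-TSS genes in ZBT-OE SSDS (Atp1b2, Actb and Nr4a1) were near-TSS genes in no other list, and no peak of those lists covered their TSSs.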

How the data were processed

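The deposited data used here were 6 annotated peak lists, 1 per group, from ATAC-seq of MACs-isolated OFC astrocytes (32 samples, 3 mice pooled in each). The study also lists raw reads of the mouse ATAC-seq samples among its deposited data, and these were not analysed here. By the methods of the study, mm10 was the build, HISAT2 the aligner and MACS the peak caller, run by the authors on unique reads from which SAMtools had removed duplicates. Whether and how samples were pooled into a list is not given in the sources used here, and neither is the origin of the wide peaks or of the different narrowest width of each list. The fold enrichment in the deposited lists is the authors' ratio of signal to background, comparable only within a list. The deposited q-value is the authors' value on a linear scale and reached at most 0.000234. The annotation, the gene name and the distance to the TSS from the peak centre are as the authors deposited them.

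Starts were read as counted from 1, since the listed distance was then obtained exactly from RefSeq TSSs for 1544 of the 1694 near-TSS peaks, against 782 with starts counted from 0. Overlap meant at least 1 bp. GC, CpG and repeats (share of 50 sampled 31-base words found more than once on the assembled chromosomes) were computed from GRCm38.p6. Of the 906 genes, 701 had an entry in the RefSeq promoter table. The lists hold no values per sample, so from them depth is unknown and no test across samples was possible. Intervals are Wilson intervals over peaks. The overlap and word counting were tested on simulated data.

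Genes were named by a fixed rule: up to 20 genes in most lists, ordered by number of lists and then by mean rank of fold enrichment; the 3 strongest and the 3 most central near-TSS peaks of each list; the 3 strongest absent peaks per direction; and members of 10 fixed gene lists. Others are marked as picked after their values were seen. The members, the lists and the rules were chosen with earlier results of these data known. Alternatives were a distance limit of 5 kb, a width limit of 100 kb, the upper 50% by fold enrichment, 1 common lower limit on width, chromosome X, an overlap of 50% of the shorter peak and, added after seeing the data, lists merged at one scale. Python 3.11.15, numpy 2.4.6, pandas 2.3.3, statsmodels 0.14.6, numba 0.67.0 and matplotlib 3.10.9 were used. The study's other data were not analysed here.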

Additional observations from a re-analysis of the deposited data

How the results depend on the processing

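No paired analysis was possible from the lists, because they hold no values per sample. No replicate could be left out for the same reason. Of 95 planned recomputations of 21 values, 50 stayed within the 95% interval of the value in the text, 42 left it and 3 crossed from one side of 1 to the other with the first interval clear of 1; of 21 added ones these were 6, 13 and 2. The ratio of Zbt-KD CSDS to Zbt-KD control (0.970, interval 0.762 to 1.24), counted as within its interval, also crossed 1 with the common lower limit (1.10) and merged (1.04). An overlap of 50% of the shorter peak and adding chromosome X moved none outside. The causes of the other shifts were not tested.

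Numbers of near-TSS peaks in the knockdown experiment rested on narrow peaks. With the common lower limit on width (20269 bp) the other 3 ratios reversed to 1.11 (GFP CSDS to GFP control), 1.02 (Zbt-KD control to GFP control) and 1.01 (Zbt-KD CSDS to GFP CSDS), and merged at one scale (gaps up to 20304 bp, distances recomputed) they were 1.33, 1.19 and 0.935. With the width limit of 100 kb the last 2 were 0.178 and 0.258. The ratio of ZBT-OE SSDS to GFP SSDS rose to 2.75 with the common lower limit and 3.17 merged.

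In the order GFP control, GFP CSDS, Zbt-KD control, Zbt-KD CSDS, GFP SSDS and ZBT-OE SSDS, near-TSS shares were 5.01%, 4.70%, 5.13%, 5.27%, 7.88% and 13.8% with the limit of 5 kb. With the width limit of 100 kb those that moved were 8.19% (GFP CSDS), 6.03%, 6.13%, 9.88% and 16.8%. In the upper 50% they were 10.8%, 10.4%, 10.8% (Zbt-KD control), 11.1% (GFP SSDS) and 17.7% (ZBT-OE SSDS). GFP SSDS and GFP control were at 9.52% and 9.80% with the common lower limit and at 9.33% and 7.40% merged. ZBT-OE SSDS had the largest share throughout these settings.

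The absent share of all peaks in the upper 50% was not computed. Whether near-TSS peaks differ from the rest there is therefore not shown for any pair below. ZBT-OE SSDS near-TSS peaks absent from GFP SSDS were 69.4% with the limit of 5 kb, 69.8% merged and 45.6% in the upper 50%. For GFP SSDS absent from ZBT-OE SSDS the values were 43.4%, 12.2% and 19.8%, and 14.5% with the common lower limit. With that limit, merged, and in the upper 50%, absence was 14.6%, 22.1% and 26.1% for GFP CSDS against GFP control, 5.00%, 10.3% and 24.9% the other way, 5.00%, 6.90% and 23.1% for GFP control against Zbt-KD control, 15.9%, 21.7% and 22.6% for Zbt-KD control against GFP control and also against Zbt-KD CSDS, 11.1%, 18.1% and 8.96% for Zbt-KD CSDS against Zbt-KD control, and 7.87%, 18.2% and 26.1% for GFP CSDS against Zbt-KD CSDS. Zbt-KD CSDS against GFP CSDS fell to 4.44% with that limit and 5.97% in the upper 50%. Merged at one scale, the absent share of all peaks was 38.2% for ZBT-OE SSDS against GFP SSDS and 14% the other way, 28.4% for GFP CSDS against GFP control and 12.6% the other way, 25.1% for Zbt-KD control against GFP control and 10.5% the other way, 19.4% for Zbt-KD CSDS against Zbt-KD control and 18.1% the other way, and 18.1% for GFP CSDS against Zbt-KD CSDS and 15.2% the other way, where the near-TSS share was 16.7%. Compared with the text, merging turned the near-TSS share from below to above that of all peaks for Zbt-KD CSDS against GFP CSDS and, barely, for GFP CSDS against Zbt-KD CSDS, and from above to below for GFP SSDS against ZBT-OE SSDS and GFP control against GFP CSDS.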
